A study of Mus musculus with 2 samples.

Results

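The genes described here encode the folliculin complex and the nutrient-sensing machinery around it, which are the folliculin-interacting proteins, the Rag GTPases and Ragulator, the GATOR complexes, the TSC complex and Rheb, the mTOR complexes, AMPK and some substrates of mTORC1. They were chosen by gene symbol and not by a threshold on their values. The list has 41 genes, of which 39 are among the 18193 genes that a probe set names alone. RAW264.7 cells, which are mouse macrophages of an established line able to form osteoclasts, were transfected with scramble siRNA or with a *Flcn* targeted siRNA. Medium containing 10% FCS was renewed 24 hours after transfection, RNA was taken 48 hours later, and RANKL is not named in the labels of these samples. Each condition was measured on 1 Affymetrix Mouse Genome 430 2.0 array, so that no difference has a replicate check and no test was run. The knockdown was made with 1 *Flcn* siRNA and compared with 1 control siRNA, and effects of the siRNA sequence and of the knockdown cannot be told apart.

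Folliculin forms a complex with Fnip1 or Fnip2 and acts at the lysosomal surface on RagC and RagD as a GTPase-activating protein. Rag dimers, anchored by Ragulator, bring mTORC1 to the lysosome when amino acids are plentiful, and Rheb then activates the kinase. GATOR1 turns RagA and RagB off, GATOR2 restrains GATOR1, the TSC complex turns Rheb off, and AMPK, the energy sensor, opposes mTORC1 and binds the folliculin complex through the Fnip proteins. The folliculin arm is known for holding the transcription factors Tfe3 and Tfeb in the cytoplasm, and much of the control within this network acts on proteins, which arrays do not measure.

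Signals are linear intensities, which can be compared between the arrays for a probe set but not between probe sets. Log2 ratios were formed with the *Flcn* siRNA array over the scramble siRNA array, after a floor at the median of each array, 13.6 and 12.8 respectively. Where a gene had several probe sets, the brightest by mean signal (the main probe set) stands for it, and a geometric mean signal of 13.2 or more was needed to pass the signal filter. Calls rest on size only, with a limit of 1.5-fold. No replicate error is available. The yardstick used is how far probe sets of 1 gene differ in their log2 ratio, with a median SD of 0.19 over 5034 genes. Such probe sets share the same arrays, so that this SD holds no spread between cultures or between arrays. Median scaling below means that every array was divided by its own median, which lowers every log2 ratio by 0.087. All 9 macrophage markers checked, among them *Csf1r*, *Cd68* and *Lyz2*, passed the filter, with summed signals of 22842 with scramble siRNA and 22604 with *Flcn* siRNA, although *Fcgr1*, an Fc receptor, was called lower (1033 and 380). No marker of T cells (of 4), B cells (of 3 with a probe set) or erythroid cells (of 2 with a probe set) passed the filter, and 1 of 4 fibroblast and 1 of 4 epithelial markers did, at signals of at most 18.3 and 14.8. Osteoclast markers summed to 197 with scramble siRNA and 266 with *Flcn* siRNA, with 4 of 6 past the filter, of which *Ctsk* was called higher (17.2 and 58.4). The part of the osteoclast markers in the results below was not tested.

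Most members of the pathway differed little between the arrays. Of the 41 genes, 37 passed the filter. *Rragb* and *Rps6kb1*, which encode RagB and the S6 kinase S6K1, are not analysed here, because no probe set named them alone. *Rragd* and *Prkaa2* did not pass the filter. On the *Flcn* siRNA array 3 members were called higher, which is 8.11% of 37, beside 5.84% of all 10285 genes past the filter. The members called were *Nprl3*, *Depdc5* and *Rptor*, of which only *Nprl3* was called with median scaling (4.05% of all genes) or with probe sets averaged (4.15%). None was called lower, beside 5.54% of all genes, and no p-value was computed for either count. The median log2 ratio was 0.010 over the members and 0.013 over all genes. Above 0 lay 20 members (54.1%) and below it 17, beside 51.7% of all genes above 0. The log2 ratio was smaller in size than the probe set SD for 24 of 37 members (64.9%), beside 45.9% of all genes. Members and all genes were not matched for signal in these comparisons. With all genes in 4 equal bands by mean signal, the median size of the log2 ratio was 0.32 in the dimmest and 0.16 in the brightest.

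**Figure D1:**
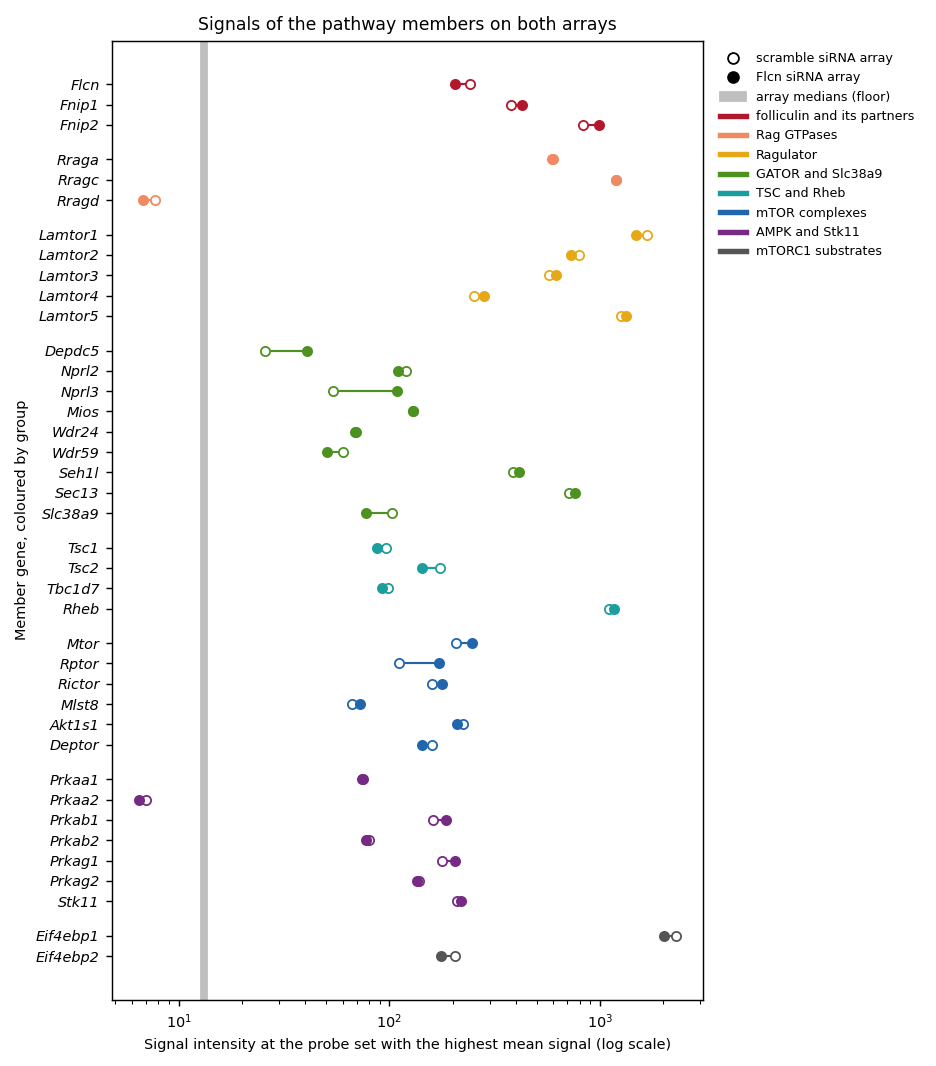
Signal intensity (log axis) of each member on the scramble siRNA array (open circles) and the *Flcn* siRNA array (filled circles), at the main probe set, coloured by group; the grey band spans the array medians of 12.8 and 13.6. The circles of *Nprl3*, *Depdc5* and *Rptor* lie farthest apart, and *Rragd* and *Prkaa2* lie under the band.

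*Flcn* (chr11:59791408-59810039, GRCm38.p6), the siRNA target, had lower signals after *Flcn* siRNA at both probe sets past the filter, and neither difference was 1.5-fold. At 1438167_x_at, which has the higher signal, the signal was 241 with scramble siRNA and 206 with *Flcn* siRNA, a log2 ratio of -0.22. At 1423663_at it was 209 and 145, a log2 ratio of -0.52. The signal was thus lower by 14.4% at the former and by 30.3% at the latter. At 1456744_x_at the signals of 8.0 and 7.2 lay under both array medians and give no ratio. Among all named probe sets past the filter, 23.2% had a log2 ratio as low as that of 1438167_x_at and 7.59% one as low as that of 1423663_at. A suffix of x_at marks probes that can also match other transcripts, and without such probe sets the value for *Flcn* is -0.52. *Gpnmb*, a known readout of *Flcn* loss, had a signal of 294 with scramble siRNA and 2500 with *Flcn* siRNA.

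The partners of folliculin were measured at slightly higher signals on the *Flcn* siRNA array. *Fnip1*, whose product binds both folliculin and AMPK, had a signal of 377 with scramble siRNA and 426 with *Flcn* siRNA, and its 3 probe sets gave log2 ratios between 0.10 and 0.18. *Fnip2*, its paralog, had 832 and 988 at its only probe set, a log2 ratio of 0.25. Neither reached 1.5-fold. With median scaling both stayed above 0, at 0.090 and 0.16.

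Among the Rag GTPases the signals of the transcripts past the filter were close on both arrays. *Rraga*, which encodes RagA, had a signal of 595 with scramble siRNA and 596 with *Flcn* siRNA. *Rragc*, which encodes RagC, a substrate of the folliculin complex, had 1195 and 1189. Their log2 ratios of 0.0032 and -0.0071 are small beside the probe set SD, and their sign depends on the scaling. *Rragd*, whose product RagD is also acted on by folliculin and whose gene is a known target of Tfe3 and Tfeb, had signals between 3.5 and 7.7 with scramble siRNA and between 2.4 and 8.3 with *Flcn* siRNA at its 3 probe sets. All of these lie under the array medians, so that no direction can be given for *Rragd* in these cells.

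Ragulator, the lysosomal scaffold of the Rag dimers, was measured in full. *Lamtor1*, the subunit that anchors the complex in the membrane, had a signal of 1666 with scramble siRNA and 1488 with *Flcn* siRNA, and its probe sets ranged from -0.16 to 0.18. *Lamtor2* had 797 and 725, and the log2 ratios of its probe sets were -0.14 and 0.36, the latter at dim signals of 19.7 and 25.3. *Lamtor3*, the partner of Lamtor2, had 574 and 621, and *Lamtor4* had 252 and 280. *Lamtor5* had 1252 and 1331, with -0.053 at its other probe set. The log2 ratios of the 5 genes lay between -0.16 and 0.15, with a median of 0.087, and all were smaller in size than the probe set SD. All 3 genes with several probe sets had probe sets on both sides of 0.

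Tfe3, Tfeb and other factors of the family bind E-box letters of the form CACGTG, which is why the promoters of the members were searched. RefSeq promoters of GRCm38.p6, from 250 bases before to 50 after the start, were found for 36 of the 41 genes. The letters CACGTG, which read the same on both strands, occurred in 7 of them (19.4%), beside 8.09% of all 27025 genes with a promoter. Of genes past the signal filter, 12.1% of 8444 held the letters, and of members past it 6 of 32. The members are *Fnip1*, *Rragb*, *Rragc*, *Lamtor1*, *Lamtor4*, *Tbc1d7* and *Rheb*. The longer palindrome TCACGTGA, which contains CACGTG, was in no member promoter and in 1.12% of all genes, and the still longer CLEAR element, which contains both, was in no member promoter and in 0.37%. TCATGTGA, the M-box form, searched on both strands, was in those of *Lamtor1* and *Lamtor2*, and in 1.15% of all genes. For the 6 measured genes with CACGTG the letters are shown in capitals with their flanks, upstream of the start used in the promoter table and in the direction of transcription, to set them beside the ratios.
*Fnip1*, chr11:54438092-54438121, plus strand: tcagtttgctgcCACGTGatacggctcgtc
*Rragc*, chr4:123917309-123917338, plus strand: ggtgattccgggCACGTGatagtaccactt
*Lamtor1*, chr7:101905757-101905786, plus strand: ctgccttcctatCACGTGccgcgggtccgc
*Lamtor4*, chr5:138255350-138255395, plus strand: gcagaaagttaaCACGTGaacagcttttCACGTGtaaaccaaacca
*Tbc1d7*, chr13:43171537-43171566, minus strand: ccggttaacatcCACGTGtgggtgggactc
*Rheb*, chr5:24842440-24842469, minus strand: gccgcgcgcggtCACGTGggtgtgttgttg
The log2 ratios of these 6 genes were 0.18, -0.0071, -0.16, 0.15, -0.10 and 0.080 in the order shown, on both sides of 0, with a median of 0.036. The median over the other members with a promoter that passed the filter was 0.012. For *Fnip1* that start lies 72 bases inside the annotated gene, so that the letters span the gene's outermost start. The matches describe letters only, and binding was not measured here.

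The highest log2 ratios among the members were those of *Nprl3* and *Depdc5*, genes of GATOR1, the complex that turns RagA and RagB off. *Nprl3* (chr11:32231963-32267707), a GATOR1 subunit, had a signal of 53.9 with scramble siRNA and 109 with *Flcn* siRNA at 1433548_at, its only probe set, and was called higher at 2.03-fold (log2 ratio 1.02). A log2 ratio as high was found for 0.817% of all genes past the filter. The signal of *Nprl3* lies in band 2 of 4 equal bands of genes by mean signal, between 61.5 and 162, in which 5.10% of genes were called higher. *Depdc5*, the GATOR1 subunit that contacts the Rag proteins, had 25.7 and 40.8 at its main probe set (log2 ratio 0.67), 19.5 and 23.8 at the next (0.29) and 22.6 and 15.0 at a further one (-0.59). The probe sets of *Depdc5* thus disagree, at signals not far above the array medians, and 13.3% of genes in band 1, the dimmest, were called higher. Its log2 ratio was 0.58 with median scaling, just under the limit, and 0.13 with probe sets averaged. *Nprl2*, the subunit that pairs with Nprl3, had 120 and 111, a log2 ratio of -0.12. The value of *Nprl2* is smaller in size than the probe set SD, so that no direction shared by the 3 subunits can be given.

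GATOR2, which restrains GATOR1, had 5 measured genes and none was called, beside 5.84% of all genes called higher and 5.54% lower. *Mios* had a signal of 129 with scramble siRNA and 130 with *Flcn* siRNA, and *Wdr24* had 69.5 and 69.1. *Wdr59* had 60.2 and 50.7, a log2 ratio of -0.25, the lowest of the complex. *Seh1l* and *Sec13*, which encode proteins shared with the nuclear pore, had log2 ratios of 0.093 and 0.088. The median of GATOR2 was 0.010.

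*Slc38a9* (chr13:112656189-112738752), which encodes a lysosomal amino acid transporter that signals arginine to the Rag proteins, had the lowest log2 ratio of the members past the filter, at -0.40. Its signal at 1436456_at was 103 with scramble siRNA and 77.9 with *Flcn* siRNA. All 7 of its probe sets past the filter lay below 0. The log2 ratios were -0.40, -0.40, -0.46, -0.17, -0.52, -0.0052 and -0.90, from the brightest probe set to the dimmest. Only the last, with signals of 34.6 and 18.6, reached 1.5-fold, and the gene was not called. Among them 1449791_x_at (-0.40) and 1447784_x_at (-0.46) carry the x_at suffix, and all 7 were read on the same arrays, so that they are no replicates. A log2 ratio as low as -0.40 was found for 11.4% of all genes past the filter. With median scaling the value was -0.49, and with quantile normalization -0.41.

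**Figure D2:**
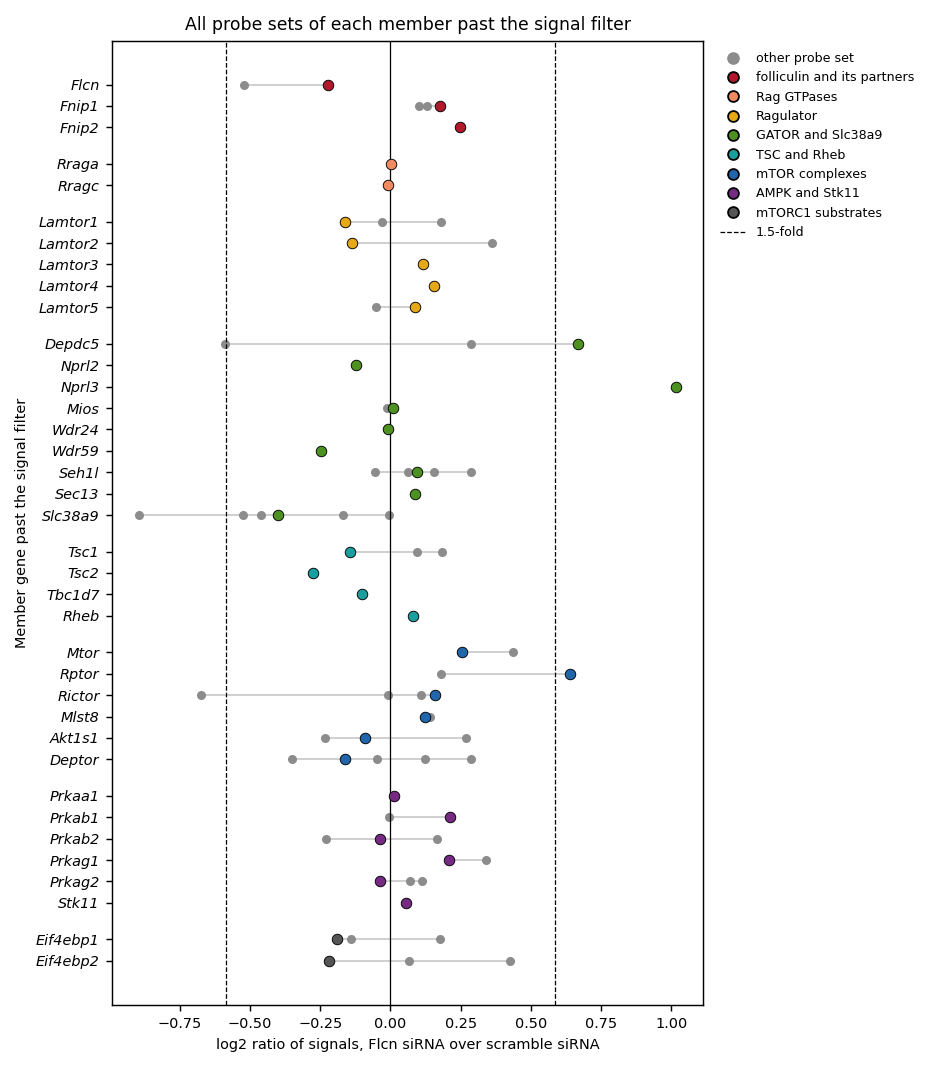
Log2 ratio of signals, *Flcn* siRNA over scramble siRNA, at every probe set past the signal filter of each of the 37 members past it; coloured points mark the main probe set, grey points the others, and dashed lines mark 1.5-fold. The 7 probe sets of *Slc38a9* and the 2 of *Flcn* lie left of 0, and those of *Depdc5* spread from -0.59 to 0.67.

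The TSC complex and Rheb, the GTPase it turns off, showed small differences. *Tsc2*, the GTPase-activating subunit, had a signal of 174 with scramble siRNA and 144 with *Flcn* siRNA, a log2 ratio of -0.28. *Tsc1*, which stabilises Tsc2, had 96.2 and 87.1 at its main probe set (-0.14), but log2 ratios of 0.18 and 0.094 at its others. *Tbc1d7*, the third subunit, had 99.1 and 92.3. *Rheb* had 1107 and 1170, and its log2 ratio of 0.080 fell to -0.0076 with median scaling. The 3 TSC genes thus lay below 0 at their main probe sets, and none was called lower, beside 5.54% of all genes.

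Of the mTOR complexes, the transcript of Raptor, the subunit that defines mTORC1 and recruits its substrates, was called higher. It was 1 of 6 genes, beside 5.84% of all genes called higher, and 4.68% of all genes had a log2 ratio as high. *Rptor* (chr11:119602905-119899591) had a signal of 111 with scramble siRNA and 173 with *Flcn* siRNA at 1434619_at, which is 1.56-fold (log2 ratio 0.64). At its other probe set past the filter the signals of 15.8 and 17.9 gave 0.18. With median scaling the log2 ratio was 0.55 and *Rptor* was no longer called. *Mtor*, the kinase of both complexes, had 206 and 246 (0.26) and, at its other probe set, 39.2 and 53.1 (0.44). *Mlst8*, a subunit of both complexes, had 66.6 and 72.5, with 0.12 and 0.14 at its probe sets.

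The subunits that set the mTOR complexes apart or inhibit them were less uniform. *Rictor*, which defines mTORC2, had 160 and 179 at its main probe set and log2 ratios from -0.67 to 0.16 over 4 probe sets. *Akt1s1*, which encodes the mTORC1 inhibitor PRAS40, had 223 and 209, and its 3 probe sets ranged from -0.23 to 0.27. *Deptor*, an inhibitor of both complexes, had 160 and 143, and its 5 probe sets ranged from -0.35 to 0.29. The -0.67 of *Rictor* came from signals of 21.7 and 12.7, and the 0.27 of *Akt1s1* from 15.1 and 18.2, near the array medians. The extremes of *Deptor* were brighter, at 62.2 and 48.8 and at 58.3 and 71.2. Over the 6 genes the median log2 ratio was 0.14, with 4 above 0 and 2 below.

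No AMPK subunit past the filter reached 1.5-fold, and the log2 ratios at their main probe sets lay between -0.039 and 0.21. *Prkaa1*, the catalytic alpha-1 subunit, had a signal of 74.6 with scramble siRNA and 75.3 with *Flcn* siRNA. *Prkaa2*, the alpha-2 subunit, had signals of at most 7.0 and 6.8 on the arrays and did not pass the filter. The beta subunits *Prkab1* and *Prkab2* had 161 and 187, and 79.8 and 77.7. The gamma subunits *Prkag1* and *Prkag2* had 178 and 206, and 139 and 135. The log2 ratios of *Prkab1* and *Prkag1* were both 0.21, and the other probe set of *Prkab1* gave -0.0043 while that of *Prkag1* gave 0.34. The other probe sets past the filter gave -0.23 and 0.16 for *Prkab2*, and 0.070 and 0.11 for *Prkag2*. *Stk11*, which encodes the AMPK-activating kinase Lkb1, had 210 and 218. Of the 6 genes past the filter none was called, beside 5.84% of all genes called higher and 5.54% lower, and the median was 0.034.

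The substrates of mTORC1 that were measured are repressors of translation which bind the cap-binding protein Eif4e. *Eif4ebp1* had signals of 2306 with scramble siRNA and 2019 with *Flcn* siRNA at an x_at probe set (-0.19), 1657 and 1503 at the next (-0.14) and 30.9 and 34.9 at a dim one (0.18). *Eif4ebp2* had 206 and 177 (-0.22) at its main probe set, and its others gave 0.066 and 0.43. Neither reached 1.5-fold.

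**Figure D3:**
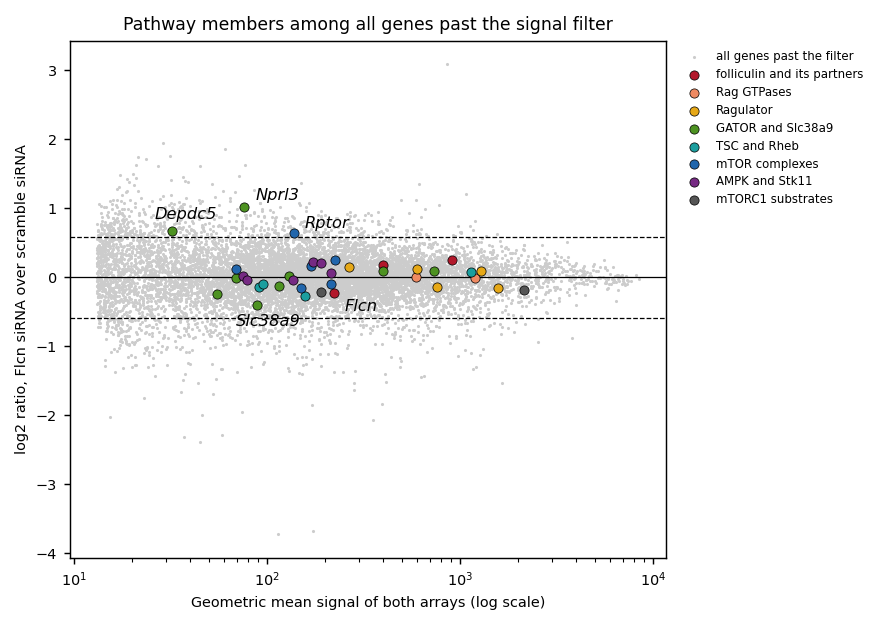
Log2 ratio, *Flcn* siRNA over scramble siRNA, against the geometric mean signal of both arrays (log axis) for all 10285 genes past the filter (grey) and the 37 members past it (coloured by group); dashed lines mark 1.5-fold. *Nprl3*, *Depdc5* and *Rptor* lie above the upper line, all at geometric mean signals under 162, and no member lies under the lower one.

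Probe sets of the same member often lay on both sides of 0. Of 22 members with several probe sets past the filter, 7 (31.8%) had all on the same side of 0, beside 55.0% of 5034 genes. These were *Flcn* and *Slc38a9*, below 0, and *Fnip1*, *Mtor*, *Rptor*, *Mlst8* and *Prkag1*, above 0. Members with several probe sets differ in how many they have, which was not matched in this share. Probe sets with signals near the array medians, such as those of *Tsc1* at 17.8 and 19.0, were counted as well.

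Other genes of the pathway, 50 in 5 lists, were set beside the members. Of these 44 had a probe set naming them alone and 35 passed the filter, 2 were called higher and 1 lower, which is 5.71% and 2.86% beside 5.84% and 5.54% of all genes, and the median log2 ratio was -0.0014. *Lpin1*, a phosphatidate phosphatase that mTORC1 phosphorylates, had signals of 20.8 with scramble siRNA and 42.2 with *Flcn* siRNA (2.03-fold) and, at its other probe set, 23.3 and 29.0 (log2 ratio 0.32). *Acaca*, which encodes the AMPK substrate acetyl-CoA carboxylase, had 114 and 176 (1.53-fold) and 14.3 and 17.2 at its other probe set (0.27). *Pdcd4*, a translation inhibitor that S6 kinase marks for destruction, had 122 and 75.4 at its only probe set, a log2 ratio of -0.69. *Acaca* was not called with median scaling.

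**Figure D4:**
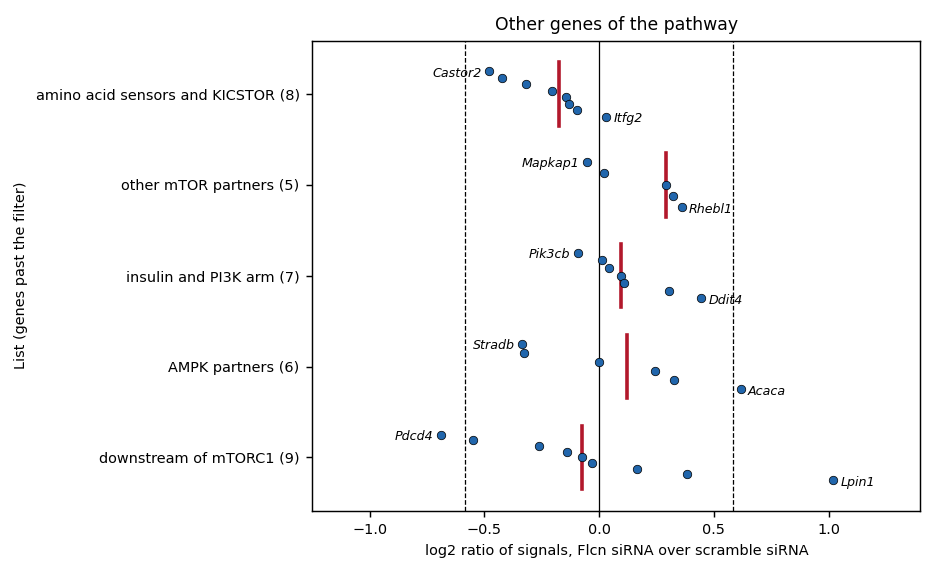
Log2 ratio, *Flcn* siRNA over scramble siRNA, of each gene past the filter in 5 lists of other pathway genes, with the number of genes in parentheses; red bars are medians, dashed lines mark 1.5-fold, and the called genes and the highest and lowest of each list are named. *Lpin1* and *Acaca* lie to the right of the right dashed line and *Pdcd4* to the left of the left one.

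The medians of the lists ran from -0.17 to 0.29 on the log2 scale. Of 8 genes of amino acid sensors and KICSTOR, the complex that holds GATOR1 at the lysosome, 7 lay below 0, with a median of -0.17. The lowest was *Castor2*, a paralog of the arginine sensor Castor1, with signals of 84.0 and 60.2 (-0.48) but 0.48 at its other probe set. The highest was *Itfg2*, a KICSTOR subunit, at 0.031. Of 5 other mTOR partners 4 lay above 0 (3 with median scaling), with a median of 0.29, from *Mapkap1*, an mTORC2 subunit, at -0.054 to *Rhebl1*, a paralog of Rheb, at 0.36. In the insulin and PI3K arm 6 of 7 genes lay above 0, with a median of 0.097, but 4 of 7 with median scaling, with a median of 0.0097. The highest there was *Ddit4*, an inhibitor of mTORC1 induced by stress, with 79.1 and 108 (0.44), and the lowest *Pik3cb*, a PI3-kinase catalytic subunit, at -0.094. Of 6 AMPK partners 3 lay above 0, and *Stradb*, a pseudokinase that binds Lkb1, was lowest at -0.33. Of 9 genes downstream of mTORC1 3 lay above 0, with a median of -0.073. None of these list values has a test.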

How the data were processed

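RNA of RAW264.7 cells was hybridised to Affymetrix Mouse Genome 430 2.0 arrays, 1 per siRNA. The values deposited by the authors are linear signal intensities from the Affymetrix software GCOS, with no detection calls, and its scaling target is not given in the sources used here. Trimmed by 2% at each end, both arrays have a mean of 100.001. Of 45101 probe sets, 64 controls, 9160 others not listed in the platform annotation and 932 naming several genes were left out, which leaves 34945. Symbols were updated to GRCm38.p6 through Entrez IDs. Ratios of 3' to 5' control signals were 1.44 and 1.34 for actin and 0.846 and 0.797 for Gapdh with scramble and *Flcn* siRNA. Precision is limited by the number of arrays. The members, the lists of other genes and markers and the calling rule were chosen with earlier results of these data known. All members are named, and of other lists each called gene and otherwise the highest and lowest. Signal bands hold equal numbers of genes past the filter. Functions were tested on simulated data. Alternatives were 2 scalings, 2 probe set rules, 2 floors and 2 filters. A value was taken to have moved when it changed by more than 0.19, the probe set SD, and a count when it changed by more than 1.5 times. Values came from pandas 2.3.3 and numpy 2.4.6 under Python 3.11.15, with scipy 1.17.1 for trimmed means and matplotlib 3.10.9 for plots.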

Additional observations from a re-analysis of the deposited data

How the results depend on the processing

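The log2 ratio of *Flcn* was -0.52 with only probe sets without the s_at or x_at suffix, and between -0.31 and -0.22 otherwise. Averaging took in probe sets that did not pass the filter. Over those past it, the mean for *Flcn* was -0.37. The number of members called higher fell from 3 to 1 with median scaling, with probe sets averaged and with a filter at the 75th percentile; this was *Nprl3* under the former 2 and *Rptor* under the last. Of all genes, 4.05%, 4.15% and 3.12% were called higher under these settings, and 28 members passed the last filter. *Nprl3*, called under each setting in which it passed the filter, did not pass that filter. With probe sets averaged *Depdc5* had a log2 ratio of 0.13 and *Rptor* 0.30, and the median of the mTORC1 substrates was 0.019 in place of -0.20. Over probe sets past the filter alone, the means were 0.12 for *Depdc5* and 0.41 for *Rptor*. No member was called lower under any setting run. The number of other pathway genes called higher was 1 in place of 2 under the same 3 settings. With no filter that number was 3, with *Grb10* added, beside 3.58% of all 18193 genes. The call of *Grb10* rests on a scramble siRNA signal of 6.7, raised to the floor, and its other probe sets lay under the floor on both arrays. With median scaling 2 in place of 1 were called lower, with *Eef2k* added. With that scaling 7.85% of all genes were called lower, and 15 members lay above 0 and 22 below. Over all genes the median log2 ratio was -0.075 with median scaling. The sign of 6 members depended on the scaling, *Rraga*, *Rragc*, *Mios*, *Rheb*, *Prkaa1* and *Stk11*. Of values for a single gene, *Flcn* included, 539 did not move and 14 did, and no called value changed sign. Many of the 539 could not move. Median scaling shifts each gene by less than the limit for a move, and a filter does not alter a ratio. Averaging leaves a gene with 1 probe set as it was, and the floors altered none of these values. All 14 moved with probe sets averaged or with suffixed ones left out, so that the 539 is no measure of stability. The shift with median scaling is the same for every gene, and the cause of the other shifts was not tested. No paired analysis was possible because each condition had 1 array. Signals near the array medians limit *Depdc5* and *Lpin1*.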
